A study of Mus musculus with 4 samples.

Results

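The amino acid, nucleoside and monocarboxylate transporters of day 9 mouse embryoid bodies are described here. They were taken as every gene of the combined table whose symbol reads Slc, a family number, the letter a and a number, for families 1, 3, 5, 6, 7, 13, 15, 16, 28, 29, 36, 38 and 43. That gave 98 of the 20284 genes, and each of the 98 had at least 1 count in the kept cells. Embryoid bodies are aggregates in which embryonic stem cells differentiate without a fixed pattern. The control group was 2 libraries of embryoid bodies from control embryonic stem cells, and the DUX-pulsed group was 2 libraries from stem cells that had received a pulse of DUX, a transcription factor of the 2-cell embryo. The series design calls the libraries of a group biological replicates, and the labels name no strain, transgene, promoter, dose or length of the pulse. Both groups were collected at day 9 and measured with single-cell libraries of unique molecular identifiers (UMIs), each of which stands for 1 captured RNA molecule.

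Solute carriers move nutrients across membranes that lipids would otherwise close to them. The families differ in what they carry and in what drives the transport. Families 1, 6, 36 and 38 carry amino acids with sodium or protons, and part of family 7 exchanges 1 amino acid for another. Many family 7 proteins reach the membrane only as light chains bound to a heavy chain, Slc3a2 or Slc3a1. Family 16 carries lactate, pyruvate and other monocarboxylates, families 28 and 29 carry nucleosides, family 13 carries sulfate and dicarboxylates, family 15 carries peptides and family 43 carries neutral amino acids. Absorptive epithelia such as the visceral endoderm of the yolk sac and the lining of the gut and kidney tubule are known for apical uptake and basolateral release of amino acids by pairs of these proteins.

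The promoters of the 4 transporters with the largest falls in endoderm-like cells, among those with a control mean of at least 5 CPM, are shown because these genes carry the main result. Each is 300 bases, read 5′ to 3′ from RefSeq on GRCm38.p6, from 250 bases before to 50 after a listed start. Capitals mark AGATAA or TTATCT, the word bound by GATA factors, and CAAAGNNCA or TGNNCTTTG, a word bound by HNF4 factors, searched on both strands with overlaps allowed.
Slc28a2, chr2:122426185-122426484, + strand: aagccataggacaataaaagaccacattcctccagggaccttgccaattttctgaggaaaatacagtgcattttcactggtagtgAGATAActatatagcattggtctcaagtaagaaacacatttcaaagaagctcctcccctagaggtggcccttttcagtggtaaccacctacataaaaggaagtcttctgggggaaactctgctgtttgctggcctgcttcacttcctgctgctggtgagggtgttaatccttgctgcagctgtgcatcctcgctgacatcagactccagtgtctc
Slc7a8, chr14:54781837-54782136, - strand: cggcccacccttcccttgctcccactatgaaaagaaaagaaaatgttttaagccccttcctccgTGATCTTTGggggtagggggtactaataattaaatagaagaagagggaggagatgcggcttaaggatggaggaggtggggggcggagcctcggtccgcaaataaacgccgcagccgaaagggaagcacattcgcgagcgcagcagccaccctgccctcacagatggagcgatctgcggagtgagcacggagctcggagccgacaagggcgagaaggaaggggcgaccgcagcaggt
Slc7a7, chr14:54417653-54417952, - strand: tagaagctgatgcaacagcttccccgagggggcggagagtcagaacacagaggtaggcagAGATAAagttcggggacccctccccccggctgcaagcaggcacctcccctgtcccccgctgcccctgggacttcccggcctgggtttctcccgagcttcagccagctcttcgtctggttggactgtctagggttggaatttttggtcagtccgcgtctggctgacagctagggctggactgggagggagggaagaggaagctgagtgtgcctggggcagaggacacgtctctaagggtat
Slc7a9, chr7:35448842-35449141, + strand: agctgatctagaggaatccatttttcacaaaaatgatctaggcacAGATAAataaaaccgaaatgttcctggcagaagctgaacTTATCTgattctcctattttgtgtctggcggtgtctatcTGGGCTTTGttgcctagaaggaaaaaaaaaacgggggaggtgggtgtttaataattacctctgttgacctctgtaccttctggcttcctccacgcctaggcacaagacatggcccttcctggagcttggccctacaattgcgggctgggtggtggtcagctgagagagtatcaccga
Where RefSeq lists several starts, as the 5 of Slc7a7 and the 2 of Slc7a9, the start with the most words is shown. The Slc28a2 and Slc7a7 windows each held 1 GATA word, the Slc7a8 window held 1 HNF4 word, and the Slc7a9 window held 2 GATA words and 1 HNF4 word. RefSeq promoters matched 72 of the 98 transporters. GATA words stood in 8.74% of the 103 transporter promoters and in 11.2% of all 32851 promoters, and HNF4 words in 10.7% against 6.36%. CACGTG, the E-box word of MYC and TFE factors, stood in 13.6% of transporter promoters and 7.15% of all. GTTAAT, an HNF1 word, stood in 8.74% against 7.10%, TGATGNAA, the amino acid response word, in 3.88% against 3.97%, and TGTTTAC, a FOX word, in 1.94% against 3.65%. These shares are descriptions, and a word in a promoter is not a bound site.

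Kept cells numbered 2824 and 2636 in the control libraries and 2063 and 1353 in the DUX-pulsed libraries, with 36462169 to 96344329 UMIs per library and median depths of 27260 to 30402.5 UMIs per cell. Of all barcodes, 8 occurred in more than 1 library. Clustering with the transporter rows left out gave 25 clusters, of which 10 were endoderm-like by gut, yolk sac or liver-type marker lists. Endoderm-like cells made up 66.8% and 71.7% of control cells but 22.8% and 24.8% of DUX-pulsed cells. The class also differed in make-up. Its DUX-pulsed cells lay mostly in clusters 7 and 9, led by Ghrl, Cdkn2b and Shh, whereas its control cells lay mostly in clusters 8, 19, 20, 21, 22, 23 and 24. Clusters 23 and 24 combined yolk sac and gut markers such as Spink1 and Apob with genes of earlier stages (Fgf5, Eomes, Mixl1, Gsc). Eomes also stands on the trophoblast list. Fgf5, and Dnmt3b, another leading gene of cluster 23, stand on the pluripotency list. Cluster 23 held 307 and 214 control cells against 4 and 3 DUX-pulsed cells, and cluster 24 held 78 and 44 against 0 and 4. The count for the class as a whole is therefore given without these clusters too. A parietal endoderm-like cluster of 438 cells, uneven between libraries at 59, 9, 318 and 52 cells, was kept apart from the class.

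In the whole culture, transporters were lower more often than higher in the DUX-pulsed libraries. The sum of counts over all kept cells gave 1 value per gene and library, and edgeR's quasi-likelihood test was run over all genes, with Benjamini-Hochberg adjusted p below 0.05 as the threshold. Of the 77 transporters that passed the filter on low counts, 22 fell and 7 rose, which is 28.6% and 9.09% of those tested. Over all 16140 genes tested, 11.1% fell and 15.6% rose. The median log2 fold change of the tested transporters was -0.22, against -0.00 for all genes. Since the filter keeps a gene for its level in either group, these counts describe the transporters that passed and not all 98. In such sums fewer cells of a type and less RNA per cell cannot be told apart. Leaving out a single library moved the counts: without control replicate 1 there were 14 falls and 3 rises, against 5.73% and 11.9% of all genes. Without control replicate 2 there were 13 and 1 (4.86% and 8.89% of all genes), and without DUX-pulsed replicate 1 there were 24 and 13 (13.9% and 18.1%).

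The largest fall in the whole culture among transporters of at least 5 CPM was that of Slc28a2, the sodium-coupled nucleoside carrier that prefers purine nucleosides. Its level was 32.0 and 27.3 CPM (counts relative to the scaled library total) in the control libraries and 1.92 and 1.02 CPM in the DUX-pulsed libraries, so the groups lay far apart. The log2 fold change was -4.30 (SE 0.32, adjusted p = 0.00221). The gene lies at chr2:122426477-122461137 (mm10, GENCODE vM21) and Gm14086 overlaps it on the same strand. Its near copy Gm14085 lies close by, also on the same strand. Gm14085 fell in parallel, from 16.6 and 17.7 CPM to 1.36 and 0.853 CPM (log2 change -3.92, adjusted p = 0.00221), and counts split between near copies are uncertain for each. Slc16a1, the proton-coupled carrier of lactate and pyruvate, stood at 522 and 718 CPM in controls and at 154 and 150 CPM in DUX-pulsed libraries. Its log2 change was -2.03, with an SE of 0.20 and an edgeR adjusted p of 0.00269. Slc13a4, a sodium-coupled sulfate carrier, fell from 62.1 and 72.7 CPM to 11.5 and 11.0 CPM (log2 change -2.58, adjusted p = 0.00196).

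Other named transporters also fell in the whole culture. Slc1a1, a glutamate carrier of epithelia and neurons, fell by 2.42 on the log2 scale from 5.22 and 7.0 CPM to 1.37 and 0.880 CPM. The light chains Slc7a7, Slc7a8 and Slc7a9 fell by 2.08, 2.08 and 2.15. Slc6a4, the serotonin carrier, fell by 1.96, from 22 and 30.8 CPM to 5.89 and 7.76 CPM. Slc7a3, a cationic amino acid carrier, fell by 1.28, Slc6a15, a carrier of branched-chain amino acids and proline, by 1.28, and Slc16a13 by 1.23. Slc3a2, the heavy chain, fell by 0.82, from 201 and 167 CPM to 111 and 97.8 CPM. Slc15a4, a lysosomal carrier of histidine and peptides, fell by 0.70, from 28.4 and 29.1 CPM to 16.9 and 18.6 CPM, and Slc29a1, an equilibrative nucleoside carrier, by 0.51, a call lost in 6 of 11 alternatives. In each of these genes both control libraries lay above both DUX-pulsed libraries.

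Among transporters of at least 5 CPM, Slc38a4 had the largest rise in the whole culture. This sodium-coupled carrier of neutral amino acids, the product of an imprinted gene, stood at 65.1 and 83.0 CPM in controls and at 167 and 253 CPM in DUX-pulsed libraries (log2 change 1.5, SE 0.25, adjusted p = 0.00908). Slc16a6, a monocarboxylate family member, rose by 1.0, Slc38a10 by 0.82 and Slc43a1, a carrier of branched-chain and other large neutral amino acids, by 0.78. Slc16a6 overlaps Amz2 and Arsg on the opposite strand, and strand use in the counting is not given in the sources used here. Slc15a3, Slc6a13 and Slc16a12 also passed, at under 5 CPM in each library, with log2 changes of 2.52, 1.01 and 0.87. Slc43a1 did not pass under 4 of 11 alternatives.

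Within the endoderm-like class falls again outnumbered rises. Sums over endoderm-like cells alone compare levels within the class instead of its share of the culture. Of 72 transporters tested, 28 fell and 8 rose (38.9% and 11.1%), against 14.9% and 14.5% of all 14631 genes tested. The median log2 fold change was -0.60 for these transporters and -0.02 for all genes. The class sums held 77725097 and 69478522 UMIs in controls and 16381730 and 12315307 in DUX-pulsed libraries. A low gene therefore passed the filter more readily through its control counts. Slc1a7, Slc5a1 and Slc6a11, without a count in the DUX-pulsed class, are among the falls. The counts describe the transporters that passed, and the part of the filter in them was not tested. Without clusters 23 and 24 there were 24 falls and 8 rises, against 14.9% and 14.5% of all genes, and with the parietal endoderm-like cluster added there were 13 and 2, against 4.54% and 5.2%. Pluripotency markers moved with the falls: the summed level of their list of 16 genes was 662 and 673 CPM in the control class and 185 and 205 CPM in the DUX-pulsed class, with 1 marker at 0. Gut endoderm markers were at 11630 and 11583 CPM against 5098 and 5678 CPM, and endothelium markers at 352 and 370 CPM against 114 and 116 CPM. Mesenchyme markers went the other way, at 974 and 1141 CPM against 1938 and 1975 CPM. None of the markers on these last 3 lists was at 0. As means over libraries, 12 of the 15 endothelium, 6 of the 18 mesenchyme and 1 of the 20 gut markers were under 1 CPM. So were 7 of the 16 pluripotency markers. Yolk sac markers were at 25369 and 26081 CPM against 21715 and 22149 CPM. Liver-type markers were at 8020.5 and 7708.7 CPM against 5610.3 and 5105.6 CPM. The part of these markers in the result was not tested.

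**Figure D1:**
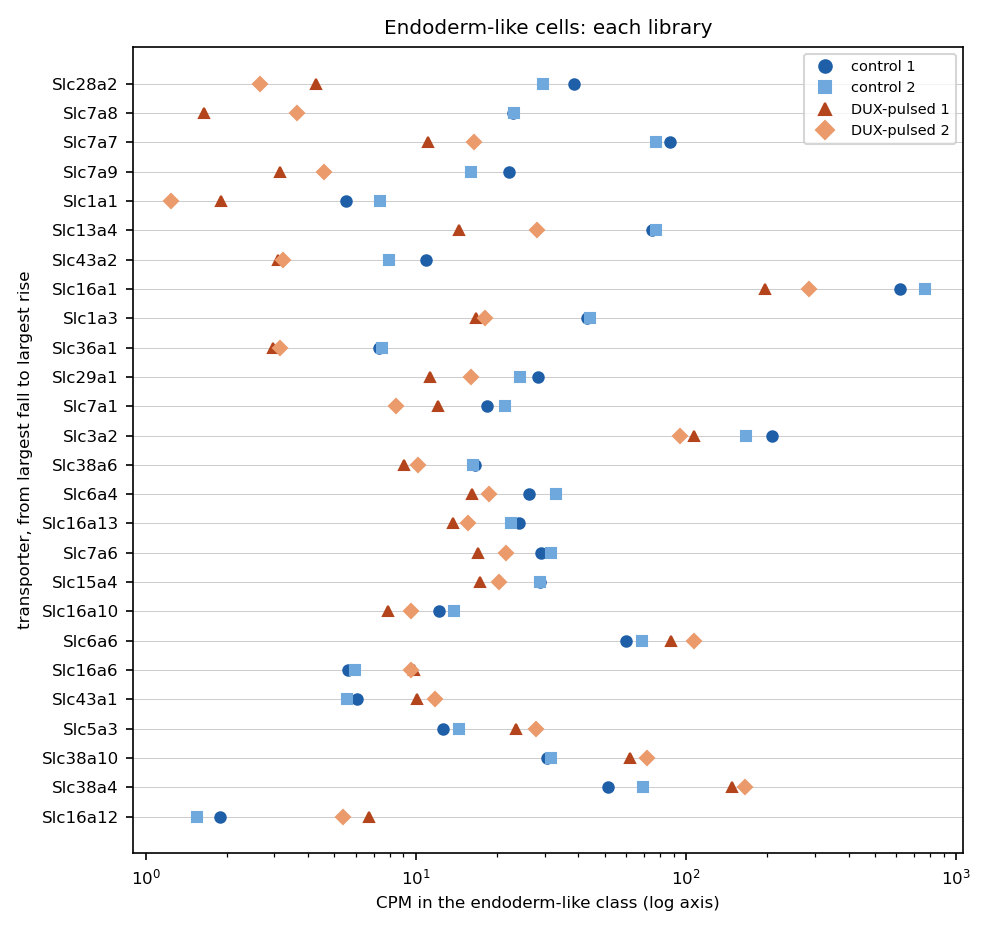
Level of 26 transporters in the sums over endoderm-like cells, in CPM on a log axis, with 1 point per library. They are those past the threshold with at least 5 CPM in the higher group, ordered from the largest fall at the top (Slc28a2, 38.7 and 29.5 CPM against 4.28 and 2.65) to the largest rise at the bottom (Slc16a12, 1.89 and 1.56 CPM against 6.71 and 5.39), and in each the control points stand apart from the DUX-pulsed points.

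Nucleoside carriers were few, and Slc28a2 stood out among them in the endoderm-like class. Its level was 38.7 and 29.5 CPM in control cells and 4.28 and 2.65 CPM in DUX-pulsed cells (log2 change -3.28, SE 0.25, adjusted p = 1.6e-04). Gm14085 went from about 20 and 19 CPM to 2.57 CPM in each library. Slc29a1, the equilibrative nucleoside carrier, was also lower, at 28.4 and 24.3 CPM against 11.3 and 16.1 CPM (log2 change -0.95, adjusted p = 0.00742). Of the 15 genes of nucleoside and base salvage, 14 were tested in the class, and 2 fell and 1 rose. That is near the 14.9% and 14.5% of all genes tested in the class that fell and rose. Adk, which phosphorylates adenosine, fell by 0.66 on the log2 scale, and Ada, which deaminates it, by 1.39. Upp1, which splits uridine, rose by 1.45, from 82.2 and 85.1 CPM to 255 and 203 CPM. Ada was outside the rule for naming and was chosen after its value was seen.

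Of the 12 tested members of family 7, 7 fell in the endoderm-like class and none rose. Over all genes tested there, 14.9% fell and 14.5% rose. Slc7a8, a light chain that carries neutral amino acids at basolateral membranes, stood at 23 and 23.1 CPM in control cells and at 1.64 and 3.65 CPM in DUX-pulsed cells (log2 change -3.16, SE 0.29, adjusted p = 3.1e-04). Slc7a7, the light chain that releases cationic amino acids, went from 87.1 and 77.3 CPM to 11.1 and 16.5 CPM (log2 change -2.58, SE 0.20, adjusted p = 1.7e-04). Slc7a9, the apical light chain for cystine and cationic amino acids, went from 22.2 and 16 CPM to 3.16 and 4.56 CPM (log2 change -2.32, SE 0.25, adjusted p = 5.3e-04). Slc7a6, a close relative of Slc7a7, was lower by less, at 29.2 and 31.7 CPM against 17.0 and 21.6 CPM (log2 change -0.66, adjusted p = 0.0161), and its fold change turned to 0.07 with the parietal endoderm-like cluster added. The cationic carrier Slc7a1 was at 18.3 and 21.3 CPM against 12.1 and 8.45 CPM (log2 change -0.94, adjusted p = 0.00955). In each of these genes the groups did not overlap. Slc7a4 also fell, by 0.83. Slc7a1, Slc7a4, Slc1a5, Slc16a12 and Slc38a6 lie outside the rule for naming and were chosen after their values were seen.

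The heavy chains and the remaining light chains completed the pattern of family 3 and family 7. Slc3a2, which carries Slc7a5, Slc7a6, Slc7a7, Slc7a8, Slc7a10 and Slc7a11 to the surface, fell by 0.89 on the log2 scale in the class, from 208 and 166 CPM to 108 and 95.3 CPM (adjusted p = 0.00521). Slc3a1, the partner of Slc7a9, had a level of 0.396 and 0.422 CPM in control and 0.197 and 0.249 CPM in DUX-pulsed cells, with 3 counts in each DUX-pulsed library, and did not pass (adjusted p = 0.256). Slc7a5, a light chain for large neutral amino acids, was at 3.23 and 4.21 CPM against 1.91 and 4.14 CPM, which overlapped (adjusted p = 0.509). Slc7a11, the cystine and glutamate exchanger, passed on few counts, 34 and 41 against 1 in each DUX-pulsed library, at a log2 change of -2.69 with an SE of 0.70 (edgeR adjusted p = 0.0226). Slc7a10 did not pass (adjusted p = 0.209).

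Several apical proteins that work beside these carriers were lower as well. Of the 12 listed partners and brush-border peptidases 8 were tested in the class, and 4 fell and 1 rose. Over all genes tested in the class, 14.9% fell and 14.5% rose. Tmem27, which brings family 6 carriers to the apical membrane of the kidney, was at 8.41 and 7.38 CPM in control and 1.78 and 1.74 CPM in DUX-pulsed cells (log2 change -2.16, SE 0.22, adjusted p = 4.2e-04). Dpp4, a peptidase that cuts dipeptides off the start of longer peptides, fell by 1.08, from 380 and 437 CPM to 188 and 199 CPM. The other falls were those of Anpep and Slc9a3r1, and the rise was that of Mme, which was named after its value was seen, as these were.

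Family 1 holds carriers of glutamate and of small neutral amino acids, and 4 of its 7 members tested in the class fell. Over all genes tested in the class, 14.9% fell. Slc1a3, a glutamate and aspartate carrier best known in astrocytes, was at 43.1 and 44.1 CPM in control and at 16.7 and 18.0 CPM in DUX-pulsed cells (log2 change -1.33, SE 0.13, adjusted p = 4.3e-04). Slc1a1 was at 5.54 and 7.36 CPM against 1.91 and 1.24 CPM (log2 change -2.01, adjusted p = 0.00154). Slc1a5, the carrier of glutamine and other small neutral amino acids, fell by 1.07, from 4.31 and 3.56 CPM to 1.71 and 2.07 CPM. Slc1a7 had 21 counts in each control library and none in the DUX-pulsed class, which puts it at least 2.73-fold lower against a floor of 3 counts over the group. Slc5a1, the sodium and glucose carrier, and Slc6a11, a GABA carrier, were likewise without a count there, at least 7.34-fold and 3.12-fold lower. All 3 were below 1 CPM in each library and lie outside the rule for naming.

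Monocarboxylate carriers moved in both directions within the endoderm-like class. Of 11 family 16 members tested, 4 fell and 3 rose, against 14.9% and 14.5% of all genes tested in the class. Slc16a1 was at 619 and 769 CPM in control and at 196 and 285 CPM in DUX-pulsed cells (log2 change -1.53, SE 0.21, adjusted p = 0.00154). Slc16a13 was at 24 and 22.5 CPM against 13.7 and 15.6 CPM (log2 change -0.67, adjusted p = 0.0108). Slc16a10, the aromatic amino acid carrier of the family, fell by 0.57 (adjusted p = 0.0453), a call lost in 8 of 12 alternatives. Slc16a6 rose by 0.75, from 5.63 and 5.98 CPM to 9.87 and 9.61 CPM, a call lost in 4 of 12 alternatives. Slc16a12, a creatine carrier, rose by 1.81 from a low level. Of the 9 genes listed for ancillary chains and for pyruvate and lactate handling, 2 rose and none fell in the class. Pdk1, the kinase that holds back pyruvate dehydrogenase, rose by 0.97, from 23.2 and 23.3 CPM to 42.1 and 49.2 CPM. The other rise was that of Ldhb, a lactate dehydrogenase subunit outside the rule for naming. Emb, an ancillary chain of these carriers, fell by 1.05 in the whole culture, whereas its endoderm-like levels of 1093 and 978 CPM and 910 and 1037 CPM overlapped between the groups (adjusted p = 0.71).

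Among the rises in the endoderm-like class were those of sodium-coupled carriers of neutral amino acids. Slc38a4 was at 51.3 and 69.5 CPM in control and at 148 and 166 CPM in DUX-pulsed cells (log2 change 1.37, SE 0.18, adjusted p = 0.00116). Slc38a10 was at 30.7 and 31.7 CPM against 62.2 and 71.9 CPM (log2 change 1.10, SE 0.14, adjusted p = 9.9e-04). Slc43a1 rose by 0.91, Slc6a6, the taurine carrier, by 0.60 (a call lost in 5 of 12 alternatives) and Slc5a3, the myo-inositol carrier, by 0.92. Slc38a2, a widely expressed carrier of neutral amino acids, was at 172 and 170 CPM against 182 and 193 CPM and did not pass (adjusted p = 0.515). Slc38a6 fell by 0.78, Slc36a1, a proton-coupled carrier of lysosomes and apical membranes, by 1.28 and Slc43a2 by 1.58. With the parietal endoderm-like cluster added, Slc36a1 was at -0.12 on the log2 scale (edgeR adjusted p = 0.846) and Slc43a2 at -0.26 (adjusted p = 0.726), and neither passed. The calls for Slc38a4 (0.96, adjusted p = 0.135), Slc7a9 (-1.12, adjusted p = 0.102), Slc5a3, Slc43a1, Slc6a4, Slc6a6, Slc15a4, Slc16a6, Slc16a10, Slc16a13 and Slc29a1 were lost there too. Slc36a4 did not pass, at 5.93 and 6.89 CPM against 4.41 and 6.47 CPM. Slc15a4 fell by 0.62 (adjusted p = 0.0141), and the 86 tested genes within 5 Mb of it had a median of -0.48 in the same sums.

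**Figure D2:**
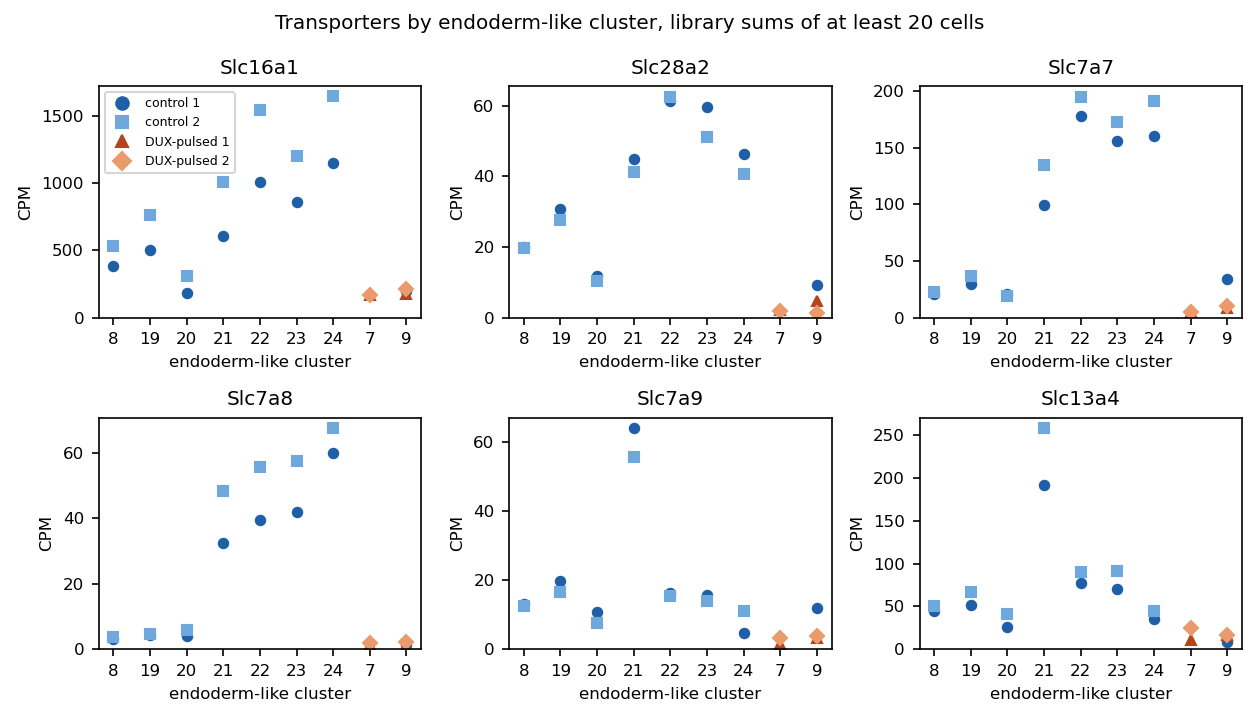
Level in CPM of 6 transporters in endoderm-like clusters, with 1 point per library that held at least 20 cells of a cluster. Clusters 8 to 24 are shown for control libraries and clusters 7 and 9 mainly for DUX-pulsed libraries. Slc7a8 and Slc7a7 were high in clusters 21 to 24 and low in 8, 19 and 20, and Slc7a9 and Slc13a4 were highest in cluster 21.

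The control clusters also differed among themselves, as the plot by cluster shows. Cluster 21, led by genes such as Bco1 and Fxyd2 and closest to the yolk sac list, had 63.9 and 55.5 CPM of Slc7a9 in the control libraries, while cluster 8 had 13.2 and 12.5 CPM. Slc13a4 was at 192 and 259 CPM in cluster 21 and at 45.2 and 50.8 CPM in cluster 8. Slc7a8 was at 32.3 and 48.3 CPM in cluster 21 and at 59.8 and 67.4 CPM in cluster 24, but at 3.11 and 3.68 CPM in cluster 8. Slc16a1 was at 1147 and 1649 CPM in cluster 24 and at 183 and 310 CPM in cluster 20, and it was at 168 and 171 CPM in the DUX-pulsed libraries of cluster 7. Slc28a2 lay between 10.3 and 62.5 CPM in each control library of clusters 8 and 19 to 24, and at 2.2 and 1.75 CPM in the DUX-pulsed libraries of cluster 7.

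A level was taken only from a library with at least 20 cells of a cluster. Cluster 7 held 18 and 19 control cells and cluster 17 held 15 and 14, so neither had a control level. Among endoderm-like clusters, cluster 9 alone had levels from both groups. Its 20 cells of control replicate 1 gave the control level, and its 19 cells of control replicate 2 were left out. There Slc16a1 was at 200 CPM in the control library and at 178 and 215 CPM in the DUX-pulsed libraries, which bracket it. Slc7a7 was at 34.0 CPM in that control library and at 8.58 and 10.5 CPM in the DUX-pulsed libraries, and Slc28a2 at 9.14 against 4.69 and 1.20 CPM. Slc38a4 went the other way, at 49.6 CPM against 140 and 174 CPM, as did Slc38a10, at 19.6 against 57.9 and 68.7 CPM. With 1 control library these values have no test. For genes such as Slc16a1 and Slc7a8 the class difference and the difference in cluster make-up cannot be told apart.

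Outside the endoderm-like class, taken as all other cells, no transporter passed in the fit without a replicate block. With the block some did in each direction, as given under the dependence on the processing. edgeR's quasi-likelihood test called 0 of 65 tested transporters in each direction at an adjusted p below 0.05, and 0.0% of all 14636 genes higher and 0.0205% lower. At an unadjusted p below 0.05, 10 transporters were higher and 9 lower, against 9.44% and 7.13% of all genes. DESeq2 called 4 and 4, against 3.98% and 2.3% of all genes. Without the parietal endoderm-like cluster edgeR called 4 higher and 5 lower, out of 59 tested, against 4.92% and 2.94% of all genes. These sums mix many classes: the summed yolk sac marker level was 5150 CPM in DUX-pulsed replicate 1 and 1417 CPM in DUX-pulsed replicate 2. Their median depth was 1925 UMIs per cell in control replicate 2 and 17604 to 25912 in the other libraries, as 404 cells of control replicate 2 lay in cluster 10, which had a median of 1056 UMIs. The part of these cells in the result was not tested.

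For 11 transporters the change itself differed between endoderm-like and other cells. The test was an interaction term with the library as a block over 8 sums. Of 77 transporters tested, 8 had a lower change in endoderm-like than in other cells and 3 a higher one (10.4% and 3.90%), against 2.55% and 2.64% of all 16047 genes. Slc7a8 had the largest difference, at -5.13 on the log2 scale (SE 0.49, adjusted p = 0.0153). Against the fall in endoderm-like cells, its level in other cells was 1.39 and 1.74 CPM in controls and 6.15 and 5.20 CPM in DUX-pulsed libraries. In myeloid- and megakaryocyte-like cells Slc7a8 was at 0.7945 CPM in control replicate 1 and at 30.5 and 21.2 CPM in DUX-pulsed libraries. Cluster 15 of that class, led by C1qb and Tyrobp, held 1 and 0 control cells against 62 and 15 DUX-pulsed cells. Mesenchyme-like cells had 0.842 and 2.08 CPM of Slc7a8 in controls against 5.28 and 5.34 CPM. Slc43a2, a carrier of large neutral amino acids, differed by -3.05 (adjusted p = 0.0253). It was at 11.0 and 7.99 CPM against 3.09 and 3.23 CPM in endoderm-like cells and 4.76 and 2.07 against 11.0 and 7.06 CPM in other cells. Myeloid- and megakaryocyte-like cells had 6.36 CPM of it in control replicate 1 against 38.9 and 39.9 CPM, and mesenchyme-like cells 1.35 and 1.19 against 1.58 and 2.43 CPM. Levels of these single classes are over all counts, without scaling. The part of class make-up in these differences was not tested. Slc1a3 differed by -1.56 (adjusted p = 0.0229), and its levels in other cells, 48.5 and 48.6 CPM against 44.6 and 67.6 CPM, overlapped.

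**Figure D3:**
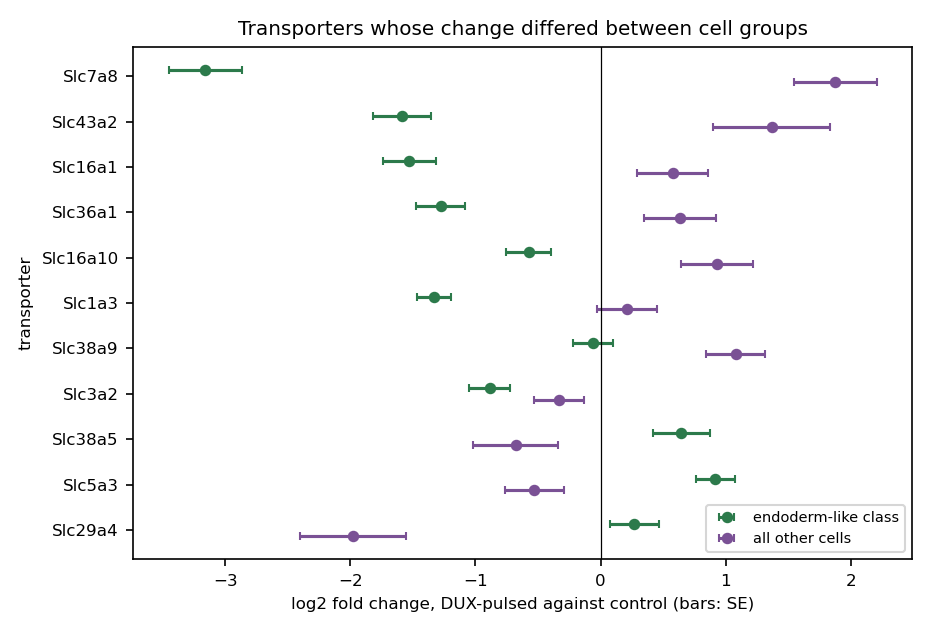
log2 fold change, DUX-pulsed against control, of the 11 transporters whose change differed between endoderm-like cells and all other cells, with bars of 1 SE. The endoderm-like and other estimates lie on opposite sides of 0 for all of them but Slc3a2, as for Slc7a8 (-3.16 and 1.87) and Slc5a3 (0.92 and -0.53). No estimate in other cells passed the threshold in this fit. The sign of the endoderm-like estimate of Slc38a9 changed under some alternatives.

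The remaining differences were smaller than those of Slc7a8 and Slc43a2. Slc16a1 differed by -2.13 (adjusted p = 0.0471), with 70.8 and 82.0 CPM in other control cells and 143 and 84.8 CPM in other DUX-pulsed cells. The higher of these, DUX-pulsed replicate 1, also held 318 of the 438 parietal endoderm-like cells, in which Slc16a1 was at 365 CPM. Slc36a1, Slc16a10, Slc38a9 and Slc3a2 differed by -1.97, -1.57, -1.20 and -0.61. Slc5a3 differed by 1.39 (adjusted p = 0.0207), Slc38a5 by 1.27 and Slc29a4, a carrier of amines, by 2.18. Slc29a4 had 39 and 21 counts in other DUX-pulsed cells. No transporter passed in edgeR's test without control replicate 1, where 0.124% of all genes were lower and 0.203% higher, or without control replicate 2, where 0.0129% and 0.0% were. Without DUX-pulsed replicate 2, 20 were lower and 5 higher (7.82% and 5.6% of all genes), and without the parietal endoderm-like cluster 13 and 6 (8.64% and 9.49%).

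Some of these genes lie in chromosome stretches that moved as blocks. Slc38a9, a lysosomal carrier that senses arginine for the kinase mTORC1, lies on chromosome 13 among genes with a median log2 fold change of 1.15 in the whole culture and 0.998 in the endoderm-like class. Its own endoderm-like levels, 19.8 and 16.3 CPM against 16.6 and 18.1 CPM, overlapped, while in other cells it was at 8.78 and 7.18 against 18.3 and 15.5 CPM. Slc5a3 lies on chromosome 16 among genes with a median of -0.55, and it shares its stretch on the same strand with Mrps6, so their counts are uncertain. Slc7a1, Slc15a4 and Slc29a4 lie on chromosome 5 among genes with medians of -0.50, -0.41 and -0.52. In endoderm-like cells Slc5a3 rose by 0.92 while its neighbours had a median of -0.57. The part of these stretches in the genes' values was not tested. For Slc28a2, Slc7a7, Slc7a8, Slc7a9 and Slc16a1 the neighbours had medians between -0.06 and 0.10 in the whole culture.

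Slc7a1 and Slc7a3, carriers of cationic amino acids, fell in both the cardiomyocyte-like and the mesenchyme-like class. In cardiomyocyte-like cells 7 of 40 tested transporters rose and 6 fell, against 9.36% and 8.37% of 11286 genes, and the medians were 0.04 and 0.00. In mesenchyme-like cells 2 of 46 rose and 4 fell, against 4.39% and 3.19% of 12110 genes, with medians of 0.15 and -0.00. Slc7a1 was at 53.7 and 69.2 CPM in control cardiomyocyte-like cells and at 18.9 and 29.1 CPM in DUX-pulsed ones (log2 change -1.36, adjusted p = 4.1e-04). In mesenchyme-like cells it was at 57.7 and 55.9 CPM against 16.8 and 25.8 CPM (log2 change -1.42, adjusted p = 0.0122). Slc7a3 was at 30.7 and 33.8 against 10.3 and 9.75 CPM in cardiomyocyte-like cells (log2 change -1.68, adjusted p = 5.8e-05) and fell by 1.31 in mesenchyme-like cells, a call lost in 4 of 10 alternatives. Slc5a3 also fell in both, a call lost in 4 of 10 alternatives in cardiomyocyte-like and in 1 of 10 in mesenchyme-like cells. Over all counts of the class, it was at 26.95 and 38.1 against 13.2 and 20.1 CPM in cardiomyocyte-like cells. In mesenchyme-like cells it was at 35.35 and 45.1 against 15.6 and 21.25 CPM. Slc38a10 rose in both, by 1.03 and 0.91. The genes within 5 Mb of Slc7a1 had medians of -0.55 and -0.50 in these classes. Slc7a1, Slc29a2, Slc15a2 and Slc43a3 lie outside the rule for naming and were chosen after their values were seen.

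Other cardiomyocyte-like rises were those of Slc29a2, an equilibrative nucleoside carrier, from 8.96 and 8.07 CPM to 17.6 and 23.1 CPM (log2 change 1.25, adjusted p = 0.00383), Slc38a9 by 1.12 and Slc15a2, a peptide carrier, by 2.61. Slc43a3, a nucleobase carrier, was at 35.3 and 33.8 CPM in control and 16.7 and 14.8 CPM in DUX-pulsed mesenchyme-like cells (log2 change -1.13, adjusted p = 0.0142). Endothelium markers in that class were at 415 and 511 CPM in control against 233 and 286 CPM in DUX-pulsed cells, and their part in the result was not tested. Slc7a8 rose in mesenchyme-like cells by 2.14, on 5 and 7 counts in controls against 70 and 55. Pluripotency markers moved with the cardiomyocyte-like falls, at a summed 1048 and 1107 CPM in control against 202 and 157 CPM in DUX-pulsed cells. Mesenchyme markers in the cardiomyocyte-like class were at 11801 and 13013 CPM against 4658 and 3962 CPM. Cardiomyocyte markers were at 50405 to 54618 CPM in the 4 libraries. The part of these markers in the result was not tested.

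Levels by class are a description, since the classes come from the same cells. Of 55 transporters with at least 5 CPM in some named class, as a mean over libraries with at least 20 cells of it, 13 had their highest level in parietal endoderm-like cells. Erythroid-like and trophoblast-like cells held 7 each, endoderm-like and endothelium-like cells 6 each, myeloid- and megakaryocyte-like and pluripotent-like cells 5 each, and mesenchyme- and cardiomyocyte-like cells 3 each. The trophoblast-like and pluripotent-like levels rest on 1 library each, DUX-pulsed replicate 1 and control replicate 1. Parietal endoderm-like means rest on control replicate 1 and both DUX-pulsed libraries. Some ranks were close, as for Slc6a15, at 11.65 CPM in parietal endoderm-like and 11.57 CPM in endoderm-like cells. Slc7a9, counted as parietal, was at 22.3 and 17.5 CPM in control endoderm-like cells but at 4.05 CPM in control parietal endoderm-like cells. In these descriptions CPM is over all counts of the class, without the scaling between libraries used in the tests.

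**Figure D4:**
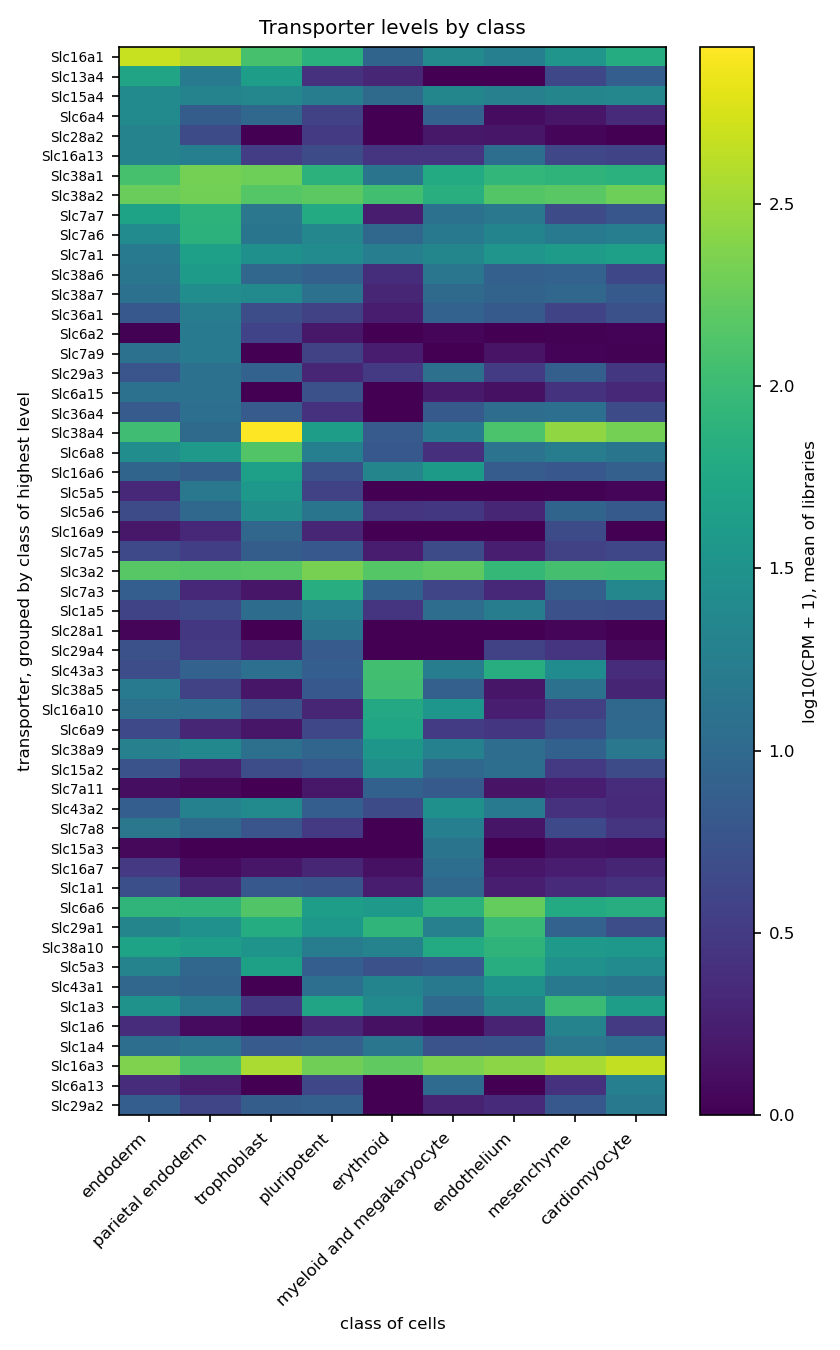
Level in 9 classes of cells of the transporters with at least 5 CPM in some class, 1 gene left out, as log10(CPM + 1) of the mean over libraries with at least 20 cells of the class. Rows are grouped by the class with the highest level. Slc38a4 was brightest in trophoblast-like cells (850 CPM), Slc43a3 and Slc38a5 in erythroid-like cells (110 and 105 CPM), and Slc16a1 in endoderm-like cells (481 CPM).

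By the mean over libraries, endoderm-like cells had the highest level of Slc16a1, Slc13a4, Slc15a4, Slc6a4, Slc28a2 and Slc16a13. In DUX-pulsed libraries alone, of these only Slc6a4 stayed highest there, at a mean of 16.6 CPM. Parietal endoderm-like means were above endoderm-like ones for Slc16a1 (477 against 230.5 CPM), Slc28a2 (4.16 against 3.28) and Slc16a13 (19.95 against 13.98). Trophoblast-like cells were above for Slc13a4 (41.9 against 20.5), and myeloid- and megakaryocyte-like cells for Slc15a4 (26.5 against 18.0). Slc16a1 was at 623 and 839 CPM in control endoderm-like cells and at 182 and 279 CPM in DUX-pulsed ones. It was at 171, 365 and 589 CPM in the parietal endoderm-like cells of 3 libraries, and at 5.20 to 10.7 CPM in erythroid-like cells. The lactate exporter Slc16a3 had another order, with 389 to 510 CPM in cardiomyocyte-like cells and 90.3 to 137 CPM in parietal endoderm-like cells. Parietal endoderm-like cells led for Slc7a6, at 79.0, 61.9 and 82.5 CPM against 15.8 to 34.6 CPM in endoderm-like cells. They led also for Slc38a6 and for the noradrenaline carrier Slc6a2, which was at 31.2, 6.45 and 8.07 CPM there and at most 0.0812 CPM in endoderm-like cells. For Slc7a7 they had the highest mean, at 44.5, 77.4 and 111 CPM, but the 2 control endoderm-like libraries, at 87.6 and 84.4 CPM, lay within that range.

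Carriers of blood and vessel cells formed another set. Slc38a5, a carrier of glutamine and related amino acids, was at 87.5 to 117 CPM in erythroid-like cells, against at most 22.2 CPM in each endoderm-like library. Slc43a3 was at 97.8 to 120 CPM in erythroid-like and 54.1 to 85.1 CPM in endothelium-like cells, and at most 5.57 CPM in endoderm-like cells. Slc6a9, the glycine carrier, was at 98.1 CPM in erythroid-like cells of control replicate 2 and at 34.4 and 29.1 CPM in the DUX-pulsed libraries. Slc29a1 was at 87.5 to 101 CPM in endothelium-like cells and at 62.4 to 115 CPM in erythroid-like cells, which overlapped. Slc15a3, a lysosomal peptide carrier, was at 25.9 and 11.9 CPM in the myeloid- and megakaryocyte-like cells of the DUX-pulsed libraries and at 0 in those of control replicate 1. That control sum held 1 macrophage-type and 37 megakaryocyte-type cells.

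Trophoblast-like cells of DUX-pulsed replicate 1 had 850 CPM of Slc38a4, against 184 to 373 CPM in the cardiomyocyte- and mesenchyme-like libraries. The same cells had 134 CPM of the creatine carrier Slc6a8, 35.1 CPM of the iodide carrier Slc5a5 and 27.3 CPM of the vitamin carrier Slc5a6. Pluripotent-like cells of control replicate 1 had 65.6 CPM of Slc7a3 and 12.4 CPM of Slc28a1, a carrier that prefers pyrimidine nucleosides. Slc1a6, a glutamate carrier best known in Purkinje cells, was at 13.4 to 26.2 CPM in mesenchyme-like libraries and at most 3.17 CPM in cardiomyocyte-like ones.

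By family, the falls in the endoderm-like class were in families 1 (4 of 7 tested), 3 (1 of 2), 5 (2 of 7), 6 (3 of 9), 7 (7 of 12), 13 (1 of 2), 15 (1 of 3), 16 (4 of 11), 28 (1 of 1), 29 (1 of 4), 36 (1 of 2), 38 (1 of 9) and 43 (1 of 3). Rises were in families 5, 6 and 43, with 1 each, 38, with 2, and 16, with 3. Over all 14631 genes tested in the class, 14.9% fell and 14.5% rose. The counts by family and by list are small and were not tested against these shares. The 2 remaining lists bear on amino acid supply. Of 17 genes of the amino acid response and serine synthesis, 3 rose and none fell in the class, and 4 rose and 2 fell in the whole culture. The median log2 fold change of this list was -0.26 in the class and 0.19 in the whole culture. Of all genes tested in the whole culture, 15.6% rose and 11.1% fell. Cebpb, a transcription factor induced in that response and by other signals, was at 11.4 and 11.5 CPM in controls and 62.9 and 59.1 CPM in DUX-pulsed libraries (log2 change 2.41, adjusted p = 0.00196). Psat1, an enzyme of serine synthesis, fell by 1.09. Of 18 tested genes of amino acid sensing by mTORC1, 1 rose and 4 fell in the class. Mtor, the kinase itself, rose by 0.89 and Flcn, a regulator of its lysosomal partners, fell by 1.20, from 27.6 and 30.9 CPM to 11.1 and 14.4 CPM.

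**Figure D5:**
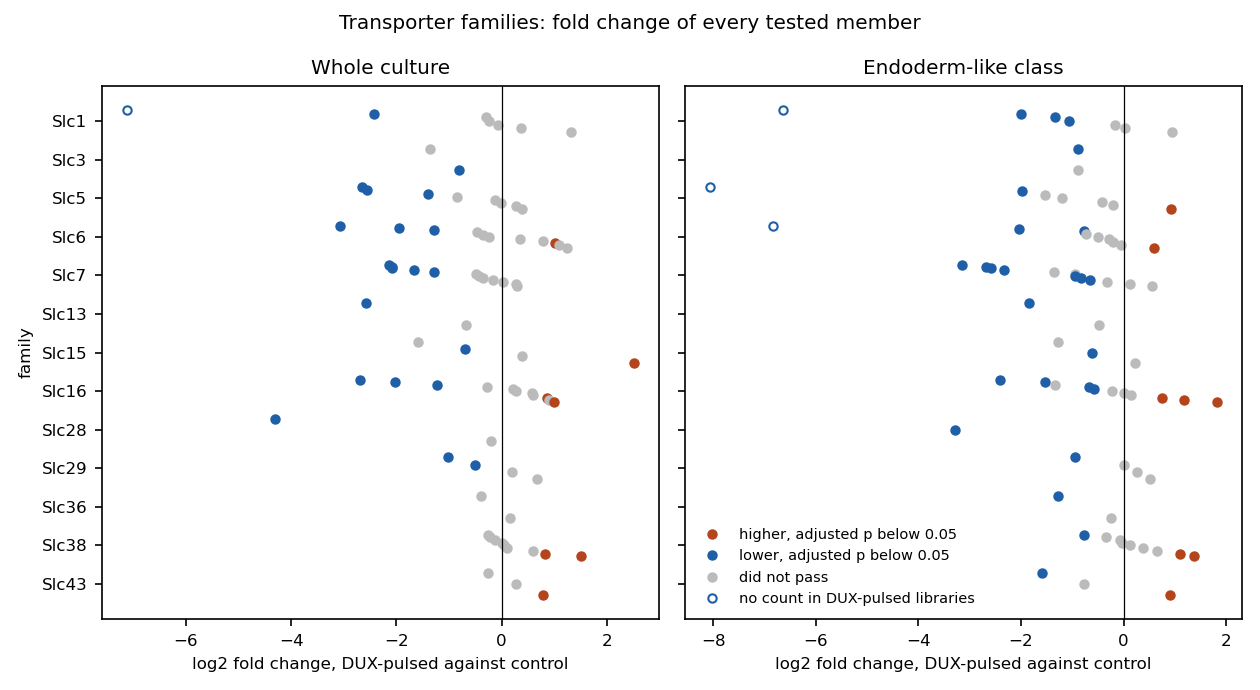
log2 fold change, DUX-pulsed against control, of each tested transporter by family, for the whole culture (77 genes) and the endoderm-like class (72 genes). Filled coloured points passed the threshold, grey points did not, and open points are genes with no count in the DUX-pulsed libraries, whose fitted values are no bounds. Falls outnumber rises, with 28 against 8 in the endoderm-like class.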

How the data were processed

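Day 9 embryoid bodies were measured as 10x Genomics single-cell libraries, 2 control and 2 DUX-pulsed. The authors deposited 1 table of UMI counts, whole numbers per gene and cell with no normalization. Per the submitters' processing notes, the tools and build include Cell Ranger 2.2.0, STAR and mm10. Strand use is not given in the sources used here. A cell was kept (8876 of 10090) if it had 500 genes or more and if mitochondrial genes held no more than 10% of its counts. Group and replicate were read from column names, as in the sample titles. The series design calls the libraries of a group biological replicates. Separate cultures are not named, so p-values measure only the spread between these libraries.

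Cells were clustered with scanpy 1.11.5 and igraph 0.11.9 without the transporter rows (10000 counts per cell, 2000 variable genes, 30 principal components, 15 neighbours, resolution 1). Endoderm-like clusters had at least 50% of a gut, yolk sac or liver-type list raised at least 2-fold over the named non-endoderm classes at 20 CPM or more. These thresholds were set after seeing the cluster profiles. Scrublet called 34 doublets (0.383% of kept cells), a share at which it has not worked, so doublets were kept and the 399 top-scoring cells were removed as an alternative.

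Counts were summed per library and class and tested with edgeR 4.0.16 (quasi-likelihood, TMM) in R 4.3.3, two-sided, with Benjamini-Hochberg adjustment over all genes with at least 10 counts in 2 libraries and 40 in all. CPM values are over TMM-scaled library sizes unless stated. The scripts were tested on simulated data. Named transporters were those called in the whole culture with non-overlapping groups and at least 5 CPM (up to 12 rises and 12 falls), the highest of each family, the heavy chains with their light chains, the 8 smallest p for the interaction, and 2 genes per pathway list. Members, lists and markers were chosen with earlier results of these data known. Alternatives were DESeq2 1.42.0, RLE size factors, no filter on low counts, stricter cells (1000 genes, 5% mitochondrial), doublet removal, a replicate block and each library left out. Positions came from GENCODE vM21 (mm10) and promoters from RefSeq (GRCm38.p6). Protein sequences were not used here, and 1 of the transporters is not reported here by name.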

Additional observations from a re-analysis of the deposited data

Results flagged for a closer look

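The change from control to DUX-pulsed libraries differed between endoderm-like and other cells for 11 transporters, by the interaction term of edgeR's quasi-likelihood test. The differences on the log2 scale, endoderm-like minus other cells, were -5.13 for Slc7a8, -3.05 for Slc43a2, -2.13 for Slc16a1, -1.97 for Slc36a1, -1.57 for Slc16a10, -1.56 for Slc1a3, -1.20 for Slc38a9 and -0.607 for Slc3a2. They were 1.27 for Slc38a5, 1.39 for Slc5a3 and 2.18 for Slc29a4. Adjusted p-values of this edgeR test ran from 0.0153 to 0.0492. Slc29a4 lies outside the rule for naming. Groups of 2 libraries are too small for a test of single outlying samples.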

How the results depend on the processing

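Alternatives changed how many transporters passed edgeR's adjusted threshold more than their direction. Apart from the shares given earlier, shares of all genes called were not counted for these alternatives, and their counts describe transporters alone. Given as higher and lower counts in DUX-pulsed libraries, the whole culture (7 and 22) gave 3 and 13 with stricter cells, and the endoderm-like class (8 and 28) gave 5 and 17. With the parietal endoderm-like cluster added, the endoderm-like class gave 2 and 13. Other cells (0 and 0) gave 4 and 4 with DESeq2 and 4 and 5 without the parietal endoderm-like cluster. Cardiomyocyte-like cells (7 and 6) gave 4 and 3 with DESeq2 and 3 and 3 with stricter cells. Mesenchyme-like cells (2 and 4) gave 5 and 9 with no filter. For the interaction (3 and 8), DESeq2 gave 13 lower, no filter 16 lower, named classes alone 1 and 3, and leaving out the parietal endoderm-like cluster 6 and 13. Over the 4 fits that leave out 1 library each, higher counts ran from 1 to 13 in the whole culture, 5 to 10 in the endoderm-like class, 3 to 5 in cardiomyocyte-like cells, 0 to 4 in mesenchyme-like cells and 0 to 5 for the interaction, and stayed at 0 in other cells. Lower counts ran from 13 to 24, 19 to 30, 3 to 5, 2 to 6 and 0 to 20, and were 1 in each such fit of other cells. In these fits the lone library of an arm is assumed to vary like the other group.

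Replicate numbers are shared between the groups, and the replicate 1 minus replicate 2 difference correlated between groups at 0.594 over 6372 genes, but with 2 pairs the numbers do not establish a pairing. With a replicate block the counts were 11 and 25 in the whole culture, 12 and 33 in the endoderm-like class, 10 and 6 in other cells, 9 and 10 in cardiomyocyte-like cells and 7 and 10 in mesenchyme-like cells. No share of all genes called was counted for the block, so a change particular to transporters cannot be read from these counts.

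Direction reversed in the endoderm-like class for 4 genes, given as log2 changes. For Slc36a4, endoderm-like values ran from -0.54 to 0.0142 over the fits without 1 library and was at 0.0774 with the parietal endoderm-like cluster. Slc7a5 ran from -0.96 to 0.159. Slc7a6 was at 0.0707 with that cluster. Slc38a9 ran from -0.22 to 0.0694 and was at 0.155 with that cluster and 0.194 without clusters 23 and 24. The cause of these changes was not tested. Slc28a2, Slc13a4, Slc1a1, Slc7a7, Slc7a8 and Slc16a1 passed under each of 11 alternatives in the whole culture and 12 in the endoderm-like class. The choices on the parietal endoderm-like cluster, on clusters 23 and 24 and on named classes for the interaction, and 4 of the settings for cardiomyocyte- and mesenchyme-like cells, were chosen after seeing the data. Keeping only clusters with at least 5% of the class in both groups was not run, as none qualified. A replicate block for the interaction was not run, since the library is already a block there. Depth limits the low genes most, as Slc3a1 and Slc7a10 had 1 to 3 counts in DUX-pulsed endoderm-like libraries.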
